A study of Mus musculus with 6 samples.

Results

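Interferon-stimulated genes are the genes that cells switch on when interferon binds its receptor. A list of 36 such mouse genes, chosen by name from the known targets of type I and type III interferon, was followed in mammary epithelial cells with and without Glis2. All 36 were found among the 54418 gene identifiers of the count table, and all 36 passed edgeR's filter on low counts, which left 21236 genes. The members were listed by name, and earlier results of these data were known when the list was made.

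The study examined what loss of Glis2, a zinc finger transcription factor of the Gli-similar family, does to mammary epithelium. Cells were dissociated from the mammary glands of female C57BL/6 mice at 4 weeks of age, stained for TER-119, CD31, CD45, CD24 and CD49f, and sorted by FACS. There were 3 libraries from Glis2+/+ mice and 3 from Glis2-/- mice, which carry a germline knockout, so that every cell type of the animal lacks the intact gene. The libraries came from 3 mice per genotype, and the labels name no treatment.

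Interferons are secreted by cells that sense foreign nucleic acid, and type I interferons bind the receptor chains Ifnar1 and Ifnar2 on neighbouring cells. Signalling from the receptor brings Stat2 and Irf9 together in a complex that binds the interferon-stimulated response element, a motif built on repeats of GAAA, in front of the target genes. The products of these genes sense viral RNA, block its translation, degrade it or mark proteins with the ubiquitin-like modifier Isg15, and many are also kept at a low basal level in unstimulated cells by weak tonic signalling.

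The sequences in front of the members show what they share beyond the list. RefSeq promoter windows on GRCm38.p6, from 250 bases before to 50 bases after the annotated start, were available for 26 of the 36 members. The core of the response element, GAAA followed by any 2 bases and again GAAA, was searched on both strands with overlaps allowed. It was present for 13 of the 26 members, against 3.99% of all 27025 genes with such a window. The GAS motif TTCNNNGAA, the element of the interferon gamma response, was present for 4 of the 26 and for 9.55% of all these genes. The following stretches come from 8 members that carry the core and whose values are described below; capitals mark the core, which reads GAAA, any 2 bases, GAAA, or TTTC, any 2 bases, TTTC where it lies on the other strand, and adjacent matches run together.

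Isg15 (chr4:156200855-156200916, minus strand): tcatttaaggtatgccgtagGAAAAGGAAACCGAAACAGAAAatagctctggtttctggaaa
Ifit1 (chr19:34640765-34640833, plus strand): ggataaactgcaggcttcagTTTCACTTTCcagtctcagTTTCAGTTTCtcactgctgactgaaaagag
Ifit3 (chr19:34583353-34583436, plus strand): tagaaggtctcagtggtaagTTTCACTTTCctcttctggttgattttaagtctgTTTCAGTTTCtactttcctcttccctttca
Bst2 (chr8:71537567-71537622, minus strand): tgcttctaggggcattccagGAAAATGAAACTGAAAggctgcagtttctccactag
Rsad2 (chr12:26456543-26456592, minus strand): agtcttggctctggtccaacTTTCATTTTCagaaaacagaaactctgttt
Oas1a (chr5:120907510-120907565, minus strand): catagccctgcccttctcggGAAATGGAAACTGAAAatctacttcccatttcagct
Gbp3 (chr3:142559979-142560034, plus strand): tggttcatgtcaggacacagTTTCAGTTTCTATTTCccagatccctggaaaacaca
Trim30a (chr7:104465200-104465249, minus strand): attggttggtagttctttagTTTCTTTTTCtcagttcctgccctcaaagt

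The Isg15 stretch, from 98 to 37 bases upstream of the start, holds 3 overlapping matches. Ifit1 and Ifit3 each hold 2 separate matches, and the Oas1a stretch reaches from 40 bases before to 16 bases after its start. Among the 13 members with a core match, the highest library exceeded the lowest by a median of 3.34-fold in CPM (counts scaled to the size of the library), against 1.93-fold among the 13 matched members without it. These medians describe 26 genes measured in the same 6 libraries and were not tested. The groups also differed in read depth. Fewer than 1000 counts over the 6 libraries were found for Oas3, Isg15, Oas1a, Rsad2, Bst2, Trim30a and Ifit3 with the core. Without the core this held for Oasl1, Ifi44 and Cmpk2. The part of depth in the medians was not tested.

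Total counts lay between 24996524 and 31393917 per library, and the members together took between 502.6 and 628.5 CPM. For Glis2 itself, 671, 663 and 510 reads were counted in wild-type libraries, and 252, 509 and 510 in those of the mutants. On the CPM scale the genotypes did not overlap for Glis2 (19.6 to 23.2 against 10.07 to 16.99), yet its log2 fold change of -0.57 did not pass (edgeR adjusted p = 0.906); transcripts of the locus were thus still counted in the mutants, and which exons the knockout removes is not stated in the sources used here. The epithelial identity of the sort was checked by markers. The 9 epithelial markers summed to between 4439 and 7003 CPM, and none of them was at 0. Markers of 7 fibroblast genes summed to between 2329 and 7758 CPM, 6 endothelial markers to between 115 and 645 CPM, and 12 leukocyte markers to between 22.2 and 84.2 CPM, so the libraries also held RNA of other cell types. The leukocyte sum was 22.2 to 41.2 CPM in Glis2+/+ and 41.6 to 84.2 CPM in Glis2-/- libraries, 10 of the 12 markers had higher values in Glis2-/- libraries, and 4 of them lay wholly higher in Glis2-/- libraries, beside 6.23% of all genes. The 6 basal markers, all higher in mutant libraries, summed to 3727 to 4864 CPM in wild-type and 5076 to 6105 CPM in mutant libraries, and 4 of them had an unadjusted p under 0.05, beside 5.32% of all genes. Of 5 markers of plasmacytoid dendritic cells, the main makers of type I interferon, 3 passed the filter and 0 had an unadjusted p under 0.05. The part of these cells in the levels below was not tested, and in bulk libraries fewer cells of a type and less RNA per cell cannot be told apart.

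No member of the list passed the test between Glis2-/- and Glis2+/+ cells. With edgeR's quasi-likelihood test over all genes, 0 of 36 members reached both limits (adjusted p of at most 0.05 and a log2 fold change of 0.58 or more in either direction), as did 0% of the 21236 genes. The smallest adjusted p of a member was 0.924. At an unadjusted p under 0.05 the count was 0 of 36, against 5.32% of all genes tested. DESeq2 with apeglm called 0.165% of its genes and 0 members, whose smallest adjusted p was 0.970. Values were higher in Glis2-/- libraries for 17 members and lower for 19, and on the log2(TPM + 1) scale for 12 and 24, with the sign turned for 13 members, Irf7, Ddx58 and Ifi44 among them. The median log2 fold change of the members was -0.03, with a range of -0.73 to 0.77, beside 0.01 over all genes. In a comparison without a model, the 3 CPM values of a genotype lay wholly above the 3 of the other for 2 of 36 members, against 11.7% of all genes. They were Irf9, higher in mutant libraries (6.23% of all genes), and Oasl1, lower in them (5.50% of all genes). With 3 against 3 libraries, the smallest two-sided p that an exact permutation test of a single gene can give is 0.1.

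How large a difference the data did not exclude varied from member to member. The 95% interval of the fold change lay within 2-fold in both directions for 18 members, and within 1.5-fold for 8: Ddx58, Dtx3l, Gbp2, Ifi35, Ifih1, Irf9, Parp9 and Trim25. The interval reached beyond 2-fold for the other 18, and 15 of these had fewer than 1000 counts over the 6 libraries. Its half-width ran from 0.25 for Trim25 to 1.98 for Oas3 on the log2 scale. For Isg15 the interval ran from 0.491-fold to 5.95-fold and for Oas3 from 0.225-fold to 3.51-fold. Differences within these limits were thus not excluded at this depth and spread.

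**Figure D1:**
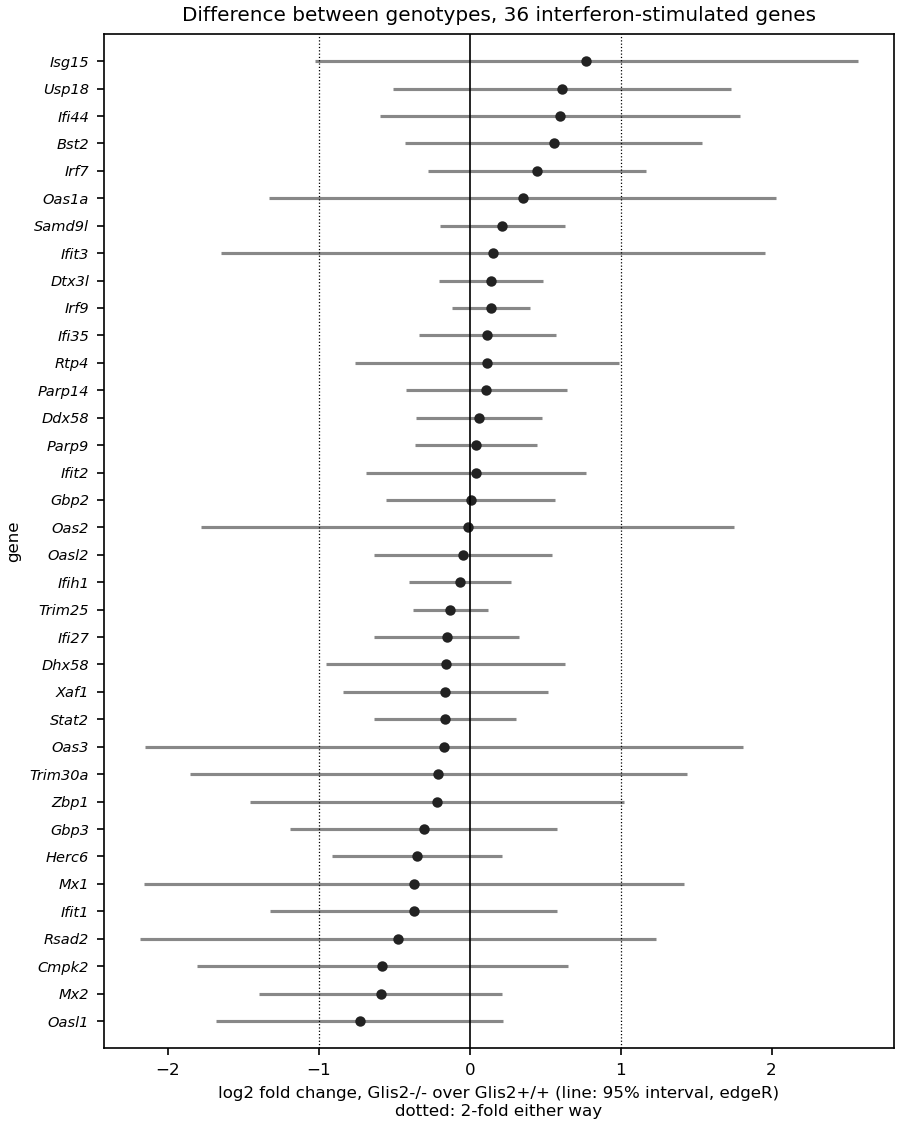
The log2 fold change (Glis2-/- over Glis2+/+) of each of the 36 members is plotted as a point with its 95% interval from edgeR as a line, ordered by size, and dotted lines mark 2-fold either way. Every interval crosses 0, and the lines are shortest for Trim25, Irf9 and Ifih1.

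The members differed widely in level. On the TPM scale, which corrects for transcript length, Ddx58 had the highest median over the 6 libraries at 8.02 TPM (5.33 to 10.4), followed by Trim25 at 6.64 TPM, Ifi27 at 5.74 TPM, Stat2 at 4.10 TPM and Irf9 at 3.70 TPM. The ranges of neighbours among these 5 overlapped. At the low end were Rsad2 at 0.127 TPM, Oas2 at 0.0621 TPM and Oas3 at 0.0258 TPM. In all, 18 members had a median under 1 TPM and 8 had a median of at least 2 TPM. For scale, the luminal keratin Krt8 had a median of 203 TPM, the class I light chain B2m 25.0 TPM and Ifnar1 4.91 TPM. All these TPM values are low in absolute terms because Gm23935 alone took 83.0% to 85.7% of each library's TPM. The members of some roles lay far apart in this order. The sensors Ddx58 and Ifih1 lay near the top and the sensor Zbp1 at 0.298 TPM. Among the remaining effectors, Ifi27 and Ifi35 lay near the top while Ifi44 had 0.170 TPM. Other roles lay together, such as Gbp2 at 1.70 TPM and Gbp3 at 1.65 TPM.

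**Figure D2:**
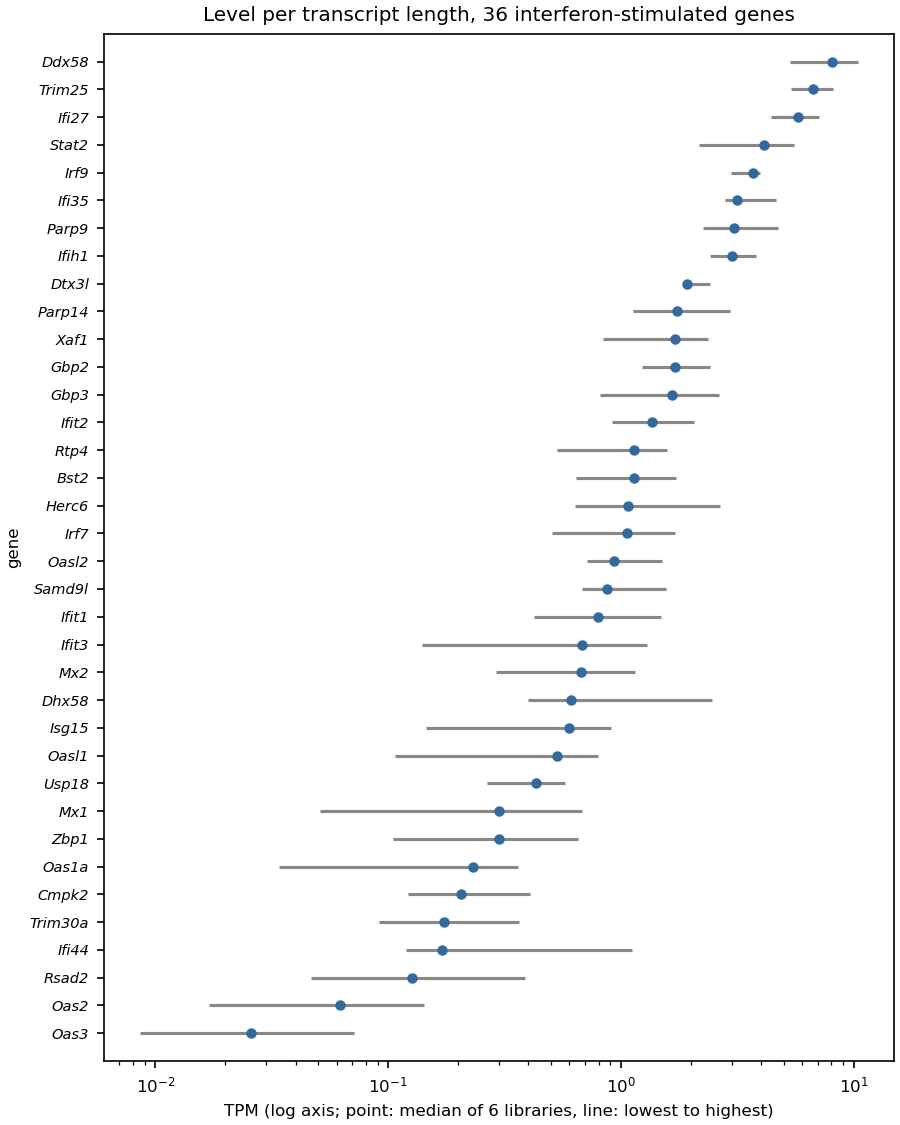
The median TPM over 6 libraries (point) and the lowest to highest library (line) are plotted for each member on a log axis, ordered by median. Ddx58 leads at 8.02 TPM and Oas3 is last at 0.0258 TPM, and lines are longest among genes under 1 TPM.

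Of the 3 transcription factors, Irf7 and Irf9 had higher and Stat2 lower mean values in Glis2-/- libraries. Irf9 (chr14:55603571-55610030, GRCm38), the DNA-binding subunit of the complex with Stat2, had 33.0, 33.1 and 33.0 CPM in Glis2+/+ libraries and 38.0, 34.6 and 36.6 CPM in Glis2-/- libraries. On this scale every Glis2-/- library was above every Glis2+/+ library, but in TPM the groups overlapped, at 2.96, 3.27 and 3.85 against 3.68, 3.71 and 3.95 TPM. Its log2 fold change was 0.14 (SE 0.11, 95% interval -0.12 to 0.40), which means a 1.10-fold difference that did not pass (edgeR adjusted p = 0.941). Irf9 shares part of its locus with Rnf31 on the same strand, so some of its reads may have been shared between the pair.

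Irf7 (chr7:141262706-141266481), the factor that amplifies the interferon response, had 7.49, 3.68 and 5.10 CPM in Glis2+/+ libraries and 8.39, 7.71 and 6.04 CPM in Glis2-/- libraries. The groups overlapped, since the first wild-type library lay above the third mutant library. The log2 fold change was 0.44 (SE 0.32). Stat2 (chr10:128270559-128292849), which carries the activation domain of the complex, had 28.8, 28.4 and 30.9 CPM in wild-type and 35.2, 22.7 and 20.9 CPM in mutant libraries. The mutant libraries lay on both sides of the wild-type values, with a log2 fold change of -0.16 (SE 0.21). Without Glis2-/- replicate 1, which had the highest Stat2 value, it was -0.43 with an unadjusted p of 0.0285 (edgeR adjusted p = 1).

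The 4 sensors of foreign nucleic acid showed small mean differences, between -0.22 and 0.06 on the log2 scale. Ddx58 (chr4:40203773-40239828), which encodes the RNA sensor RIG-I, had 49.9, 62.3 and 58.8 CPM in Glis2+/+ and 70.4, 64.2 and 43.6 CPM in Glis2-/- libraries. The mutant group held both the highest and the lowest value. Its log2 fold change was 0.06, with a 95% interval of -0.36 to 0.48. Ifih1, which encodes the related sensor MDA5, ranged from 38.6 to 50.7 CPM and had a log2 fold change of -0.06. Dhx58, which encodes LGP2, a regulator of both, ranged from 2.70 to 5.35 CPM (log2 fold change -0.16, SE 0.35). Zbp1, a sensor of Z-form nucleic acid, ranged from 0.980 to 2.59 CPM (-0.22, SE 0.54). The abundant sensors Ddx58 and Ifih1 had the narrower intervals, and the scarce Zbp1 the widest of the 4.

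The ISGylation genes encode the modifier Isg15, its protease Usp18, and the ligases Herc6 and Trim25. Isg15 (chr4:156199424-156200818) had the largest positive value of the list, and its reads were few: 66, 9 and 10 in wild-type and 45, 32 and 63 in mutant libraries. These correspond to 2.14, 0.315 and 0.384 CPM against 1.80, 1.07 and 2.01 CPM. The single highest library was wild-type and the next 3 were the mutants. The log2 fold change of 0.77 had a standard error of 0.79 and an interval of -1.03 to 2.57. That value hangs on Glis2+/+ replicate 1: without it the log2 fold change was 2.19, with an unadjusted p of 0.0151 (edgeR adjusted p = 0.773).

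Usp18 (chr6:121245906-121270917), which also restrains signalling at the receptor, had 3.14, 1.65 and 1.92 CPM in wild-type and 4.08, 1.57 and 4.63 CPM in mutant libraries. Replicate 2 was lowest in both genotypes, and the log2 fold change was 0.61 (SE 0.49). Herc6, which takes the place of human HERC5 in mice, ranged from 14.7 to 28.7 CPM (log2 fold change -0.35, SE 0.25). Trim25, the activator of RIG-I, had the most reads of any member, up to 2419 in a library. It ranged from 67.2 to 84.7 CPM, with a log2 fold change of -0.13 (SE 0.11). Isg15 and Usp18, genes induced strongly by added interferon, had median levels of 0.596 and 0.430 TPM, against 6.64 TPM for Trim25.

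The 3 Ifit genes encode RNA-binding proteins that block translation of viral transcripts, and they lie in a cluster on chromosome 19. Ifit1 (chr19:34640871-34650009) had 15.3, 4.59 and 14.9 CPM in Glis2+/+ and 8.15, 7.98 and 10.7 CPM in Glis2-/- libraries. The wild-type group held the 2 highest values and the lowest one. Its log2 fold change was -0.37 (SE 0.42, interval -1.32 to 0.58), and without Glis2+/+ replicate 2 it was -0.75 with an unadjusted p of 0.0118 (edgeR adjusted p = 0.740). Ifit3 had 5.87, 0.945 and 7.45 CPM in wild-type and 3.92, 1.64 and 10.3 CPM in mutant libraries, a 10.9-fold range, with a log2 fold change of 0.15 (SE 0.79). Ifit2 had 25.0, 12.0 and 20.8 CPM against 14.8, 16.96 and 27.7 CPM (0.04, SE 0.32). In all 3 the second wild-type library was the lowest of the 6, and the ratio of the first to the second wild-type library lay between 2.08 and 6.21. Ifit1 made up 96.6% of the counts summed with its related copies, and Ifit3 83.0%.

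The 5 genes of the oligoadenylate synthetase family lie on chromosome 5 and encode enzymes that activate RNase L, or their catalytically inactive relatives. Oasl1 (chr5:114923240-114937915), an inactive relative that represses translation of Irf7, had 2.07, 1.93 and 2.38 CPM in Glis2+/+ libraries (64, 55 and 62 counts). In Glis2-/- libraries it had 1.199, 1.14 and 1.502 CPM (30, 34 and 47 counts). All mutant values were below all wild-type values, and replicate 2 was lowest in both. The log2 fold change of -0.73 was the largest in that direction in the list, with an SE of 0.42, an interval of -1.68 to 0.22 and an edgeR adjusted p of 0.924. It stayed between -0.88 and -0.64 when single libraries were left out.

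Oas2 (chr5:120730333-120749853) had 1.69, 0.420 and 0.883 CPM in wild-type and 1.08, 1.57 and 0.320 CPM in mutant libraries. The groups covered the same range, and the log2 fold change was -0.01 (SE 0.77). Oas1a had 89, 7 and 41 counts against 57, 63 and 51, an 11.8-fold range in CPM that came from the second wild-type library, with a log2 fold change of 0.35 (SE 0.74). It held only 32.7% of the counts of the Oas1 copies, whose sum had a log2 fold change of 0.16, and so its own value depends on how reads were shared among them. Oas3 had 5 to 21 counts a library (log2 fold change -0.17, SE 0.87), and Oasl2 ranged from 6.23 to 9.75 CPM (-0.04, SE 0.26). In TPM the groups of Oasl1 overlapped too, at 0.517, 0.545 and 0.798 against 0.228, 0.107 and 0.632 TPM.

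The Mx genes encode dynamin-like GTPases that trap viral particles, and both are known to be defective in most laboratory strains, C57BL/6 included for Mx1. Mx2 (chr16:97535308-97560900) had 6.13, 5.11 and 6.79 CPM in Glis2+/+ and 5.59, 2.40 and 3.99 CPM in Glis2-/- libraries. The first mutant library lay within the wild-type range and the other mutants below it. The log2 fold change was -0.59 (SE 0.35), and without Glis2-/- replicate 1 it was -0.91 with an unadjusted p of 0.0424 (edgeR adjusted p = 1). Mx1 ranged from 0.334 to 3.49 CPM (-0.37, SE 0.78). Glis2 itself is on chromosome 16, as are Mx1, Mx2, Parp9, Parp14, Dtx3l and Rtp4, whose log2 fold changes lay between -0.59 and 0.14.

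Rsad2, which encodes the antiviral enzyme viperin, and its neighbour Cmpk2, a mitochondrial nucleotide kinase, lie together on chromosome 12. Rsad2 (chr12:26442746-26456452) had 1.78, 0.735 and 6.10 CPM in Glis2+/+ and 2.20, 1.00 and 2.97 CPM in Glis2-/- libraries. One wild-type library was more than 2-fold above all others, and the log2 fold change was -0.48 (SE 0.75). Cmpk2 (chr12:26469204-26479837) had 5.83, 1.75 and 4.37 CPM against 1.64, 2.04 and 4.31 CPM, a log2 fold change of -0.58 (SE 0.54). The mutant libraries lay within or just below the wild-type range for both genes.

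**Figure D3:**
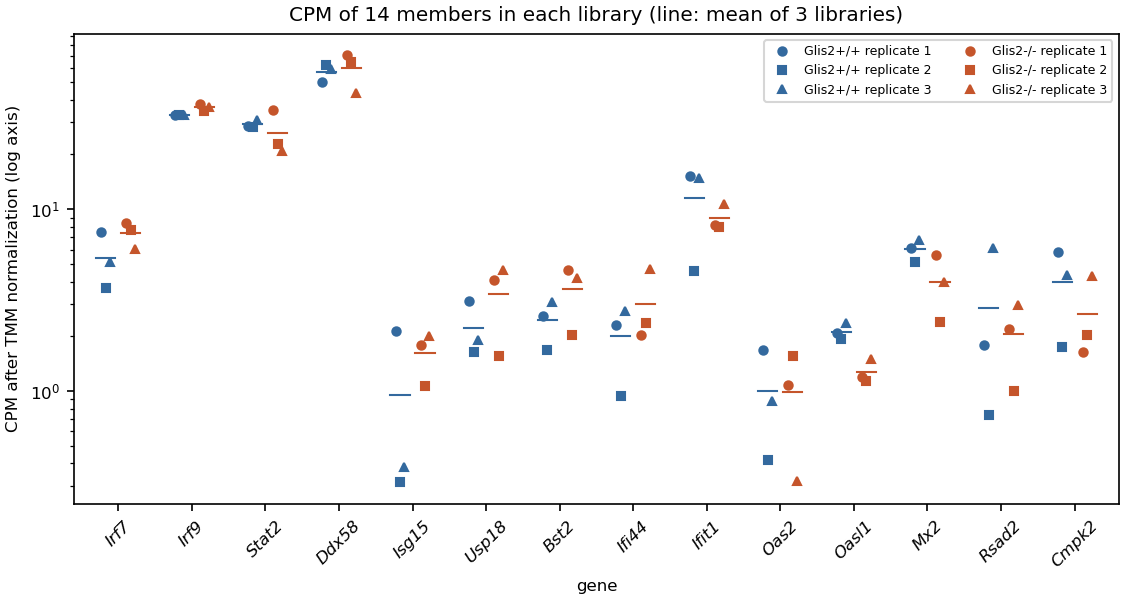
CPM after TMM normalization is plotted on a log axis for 14 members in each of the 6 libraries (blue Glis2+/+, orange Glis2-/-; the symbol gives the replicate, the line the mean of 3 libraries). The colours are apart for Irf9 and Oasl1 and overlap for the other 12, and squares, which mark replicate 2, are often lowest.

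Guanylate-binding proteins attack the membranes of vacuoles that hold pathogens. Gbp2 ranged from 14.5 to 25.2 CPM with a log2 fold change of 0.00 (interval -0.55 to 0.56). Gbp3 had 28.1, 10.1 and 22.8 CPM in wild-type and 19.6, 10.2 and 19.5 CPM in mutant libraries (log2 fold change -0.31, SE 0.39), and its value ran from -0.63 to -0.015 when single libraries were left out. Replicate 2 was lowest in both genotypes for this pair. Gbp2 and Gbp3 each held 51.8% and 38.9% of the counts summed with a related gene. Their separate values may depend on how reads were shared with it, which was not tested.

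Parp9 and Dtx3l encode an ADP-ribosyltransferase and the ubiquitin ligase that works with it, and Parp14 encodes a larger relative. Their log2 fold changes were 0.04 (SE 0.18), 0.14 (SE 0.15) and 0.11 (SE 0.23). Parp9 ranged from 26.9 to 39.0 CPM, Dtx3l from 38.3 to 57.1 CPM, and Parp14 from 29.3 to 57.5 CPM. Parp9 and Dtx3l overlap on opposite strands, and whether the counting used strand is not stated in the sources used here, so reads of the pair may not be separable.

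Of the 8 remaining effectors, 5 had higher and 3 lower mean values in Glis2-/- libraries. Bst2 (chr8:71534255-71537456), which encodes tetherin, the tether of budding virions, had 2.59, 1.68 and 3.11 CPM in wild-type and 4.64, 2.04 and 4.19 CPM in mutant libraries. Replicate 2 was lowest in both groups, and its mutant value lay within the wild-type range. The log2 fold change was 0.56 (SE 0.43). Ifi44 (chr3:151730922-151749960) had 2.30, 0.945 and 2.76 CPM against 2.04, 2.37 and 4.67 CPM, a log2 fold change of 0.60 (SE 0.52). Only the third mutant library was above the wild-type range, and per transcript length the order changed: the third wild-type library was highest, at 1.11 TPM. Trim30a, an inhibitor of inflammatory signalling, ranged from 0.770 to 5.40 CPM (-0.21, SE 0.72), and Samd9l, a translational repressor, from 15.4 to 24.0 CPM (0.22, SE 0.18). The apoptosis-associated gene Xaf1 ranged from 8.37 to 16.1 CPM (-0.16, SE 0.30), Ifi27 from 11.0 to 16.1 CPM (-0.15, SE 0.21), Ifi35 from 12.4 to 19.1 CPM (0.12, SE 0.20) and Rtp4 from 2.49 to 5.98 CPM (0.12, SE 0.38).

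The range over the 6 libraries of both genotypes was wide for some members and narrow for others. The highest library was at least 3-fold above the lowest for 11 members (Cmpk2, Ifi44, Ifit1, Ifit3, Isg15, Mx1, Oas1a, Oas2, Oas3, Rsad2 and Trim30a), all of them under 1 TPM by median. It was less than 1.5-fold above the lowest for 6 members (Dtx3l, Ifi27, Ifih1, Irf9, Parp9 and Trim25), none of them under 1 TPM. For 16 of 36 members the spread between libraries of a genotype, as edgeR's dispersion, lay above the trend at the gene's abundance, against 27.8% of all genes. The median coefficient of biological variation was 33.4% for the members and 29.8% for all genes. The grouping by variability was read from the same libraries and is a description.

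Replicate 2 was often the lowest library in both genotypes. Among the wild-type libraries, replicate 2 was the lowest for 29 of 36 members, against 35.5% of all genes tested; the 7 exceptions were Ddx58, Dtx3l, Ifih1, Irf9, Mx1, Parp9 and Trim25. Among the mutants, replicate 2 was lowest for 19 of 36, against 35.3%. It was lowest in both for 17 members, among them Isg15, Usp18, Ifit1, Ifit3, Oasl1, Mx2, Bst2 and Rsad2, against 16.7%. The median deviation of the members from their own mean was -0.49 in Glis2+/+ replicate 2 and -0.18 in Glis2-/- replicate 2 on the log2 scale. It lay between 0.01 and 0.21 in the other 4 libraries. Glis2+/+ replicate 2 held the lowest of all 6 values for 22 members.

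Markers of other cell types were lowest in the same libraries. The endothelial sum was 115 CPM in Glis2+/+ replicate 2 and 175 CPM in Glis2-/- replicate 2, against 401 to 645 CPM in the other 4, and all 6 endothelial markers were lowest in replicate 2 of both genotypes. The fibroblast sum was 2329 and 2621 CPM in these libraries and 4305 to 7758 CPM in the others, and 5 of its 7 markers showed the same order. The epithelial sum was highest in these replicates 2, at 7003 and 6939 CPM. So was the sum of 7 luminal markers, some of them shared with the epithelial list, at 5842 and 6166 CPM against 3488 to 5193 CPM in the others. The basal sum was not, at 4404 and 5076 CPM. No marker of these lists was at 0 in all libraries, and the part of stromal RNA in the members' levels was not tested. Without replicate 2 of both genotypes, a choice made after seeing the data, 0 members passed, 10 of 36 values were higher in Glis2-/- libraries and the median log2 fold change was -0.16. Ifit1 then had a log2 fold change of -0.68 and an unadjusted p of 0.0317 (edgeR adjusted p = 0.966). With the endothelial level as a covariate, also added after seeing the data, 0 members passed and the smallest adjusted p of a member was 0.605.

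**Figure D4:**
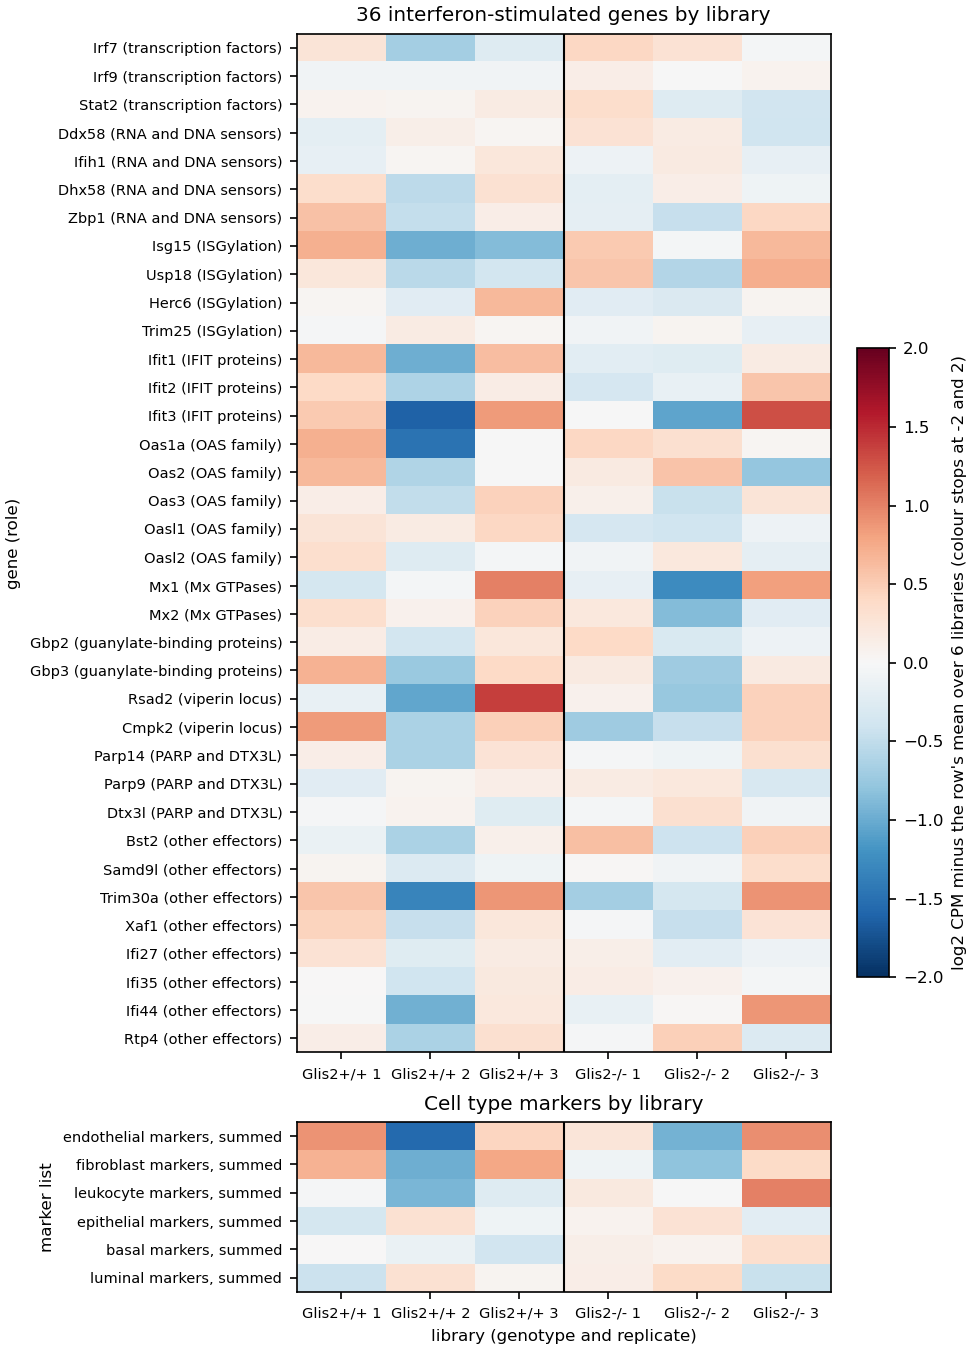
Each cell gives the log2 CPM of a member (upper panel, 36 rows) or of a summed marker list (lower panel) minus the row's mean over the 6 libraries; the line parts the genotypes. The second column of each genotype is mostly blue in the upper panel and for endothelial and fibroblast markers, and red for epithelial markers.

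Among the genes upstream of the members, none passed. Of 57 interferon pathway genes, 34 passed the filter on low counts, 0 of these were called by edgeR, 0 had an unadjusted p under 0.05, and 23 had higher values in Glis2-/- libraries. None of the 21 interferon genes passed the filter. Of these ligands 12 had 0 counts in all 6 libraries, which allows up to 3 counts in each. The largest count was 17. Ifnb1, the first interferon made after sensing, was given 2, 1 and 13 counts in the wild-type and 17, 0 and 0 in the mutant libraries, and Ifna12 had 17 counts in 1 wild-type library only. At that depth no difference between the genotypes was detectable for a ligand.

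The 6 receptor chains all had positive edgeR log2 fold changes, between 0.01 and 0.25. In TPM the direction was mixed: the mutant mean was below the wild-type mean for Ifnar2, Ifngr2 and Il10rb, and above it for the others. Ifnar1, the signalling chain of the type I receptor, had 63.0, 52.9 and 55.5 CPM in wild-type and 76.1, 56.5 and 70.6 CPM in mutant libraries (0.25, SE 0.14). Ifnar2, which binds the ligand first, had 35.2, 21.9 and 24.6 against 32.6, 27.8 and 36.5 CPM (0.25, SE 0.20). Both overlapped between the genotypes.

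Of the regulators, Irf3, which switches on Ifnb1, had 22.5, 25.9 and 23.4 CPM in Glis2+/+ and 31.3, 31.1 and 26.6 CPM in Glis2-/- libraries. The groups did not overlap in CPM and did in TPM, and the log2 fold change was 0.31 (SE 0.14, edgeR adjusted p = 0.906). Mavs, the adaptor of the RNA sensors, had a log2 fold change of 0.30 (SE 0.18), and Irf1 one of -0.11 (SE 0.17), both with overlap. The negative regulators Socs3 (0.17) and Adar (0.14) were also without overlap and higher in mutant libraries in CPM, but in TPM Socs3 overlapped and Adar was lower in all mutant libraries. Rnaseh2b (-0.46) and Rnaseh2c (-0.28), subunits of the enzyme that removes RNA from DNA hybrids, were without overlap and lower in CPM, and Rnaseh2b overlapped in TPM. In all, 5 of the 34 tested pathway genes did not overlap, beside 11.7% of all genes, so the share is near the background.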

How the data were processed

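The analysis used 6 RNA-seq libraries of sorted mammary epithelial cells, 3 per Glis2 genotype. The authors estimated transcript abundance with Salmon 1.2.1 on an mm10 transcriptome with the genome as a decoy and deposited estimated counts per gene as whole numbers without normalization. The authors also deposited log2(TPM + 1), from which TPM was computed back. Total counts lay between 24996524 and 31393917. No pair of libraries was a copy, since the chi-square per degree of freedom was at least 20.5. Symbols, positions and overlapping genes were taken from a GRCm38 annotation, which held 54166 of the 54418 identifiers. The members, the other gene lists and the promoter motifs were chosen with earlier results of these data known.

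Genotypes were compared with edgeR 4.0.16 in R 4.3.3 (filterByExpr, TMM, quasi-likelihood fit), without a replicate block and with Benjamini-Hochberg adjustment over 21236 genes. Standard errors and 95% intervals come from the same fit. Genes were called where the adjusted p was at most 0.05 and the log2 fold change 0.58 or more in size. P-values measure the spread between these samples, which may be in part technical. The functions were tested on simulated data. Values by library are given for members without overlap between genotypes or with an unadjusted p under 0.05, the 5 largest values in each direction and 8 anchors (Isg15, Irf7, Irf9, Stat2, Ifit1, Oas2, Bst2, Ddx58), 14 members in all. Values by library of Ifit2, Ifit3, Oas1a and Gbp3 were added after they were seen. From the other lists, genes without overlap or with an unadjusted p under 0.05 and anchor genes are named, except results that are not reported here; Tap1, named as the lowest of its list, was added.

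Alternatives were DESeq2 1.42.0 with apeglm 1.24.0, DESeq2 size factors, no filter, and at least 10 counts in every sample. Others were limma 3.58.1 on log2 TPM with offsets of 1 and 0.1, related copies summed, a replicate block, and leaving out each library. Added after seeing the data were leaving out both replicates 2 and an endothelial covariate.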

Additional observations from a re-analysis of the deposited data

How the results depend on the processing

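In each of the 16 alternatives run, 0 members were called, and 15 of 36 members kept the sign of their log2 fold change in every one that tested them, as did 12 of 17 other genes named. The smallest adjusted p of a member lay between 0.605 and 1. Over all genes, 40 were called without a filter on low counts, 45 by DESeq2 with apeglm, 1 by limma on log2(TPM + 0.1) and 22 with the endothelial covariate; the cause was not tested. The number of members at an unadjusted p under 0.05 was 0 to 2 when single libraries were left out, and 1 without both replicates 2. The median of the members lay between -0.18 and 0.11 when single libraries were left out.

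Same-numbered libraries correlated in their deviations with r of -0.03, 0.29 and 0.06. Libraries with different numbers were not compared in this way, so these values cannot show whether the replicate numbers pair the samples. With the replicate block 0 members and 0 genes were called, and the median of the members was -0.05. The log2(TPM + 0.1) scale moved the median of all genes by -0.14. At least 10 counts in every sample left 33 members to test.

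Signs turned as follows on the log2 scale, and the cause was not tested. Gbp2 gave -0.0054 with DESeq2 size factors, -0.0019 without a filter, -0.012 with at least 10 counts, -0.0020 with the replicate block, -0.032 with copies summed, -0.014 with the covariate and -5.1e-08 after DESeq2 shrinkage. Shrinkage also gave 1.5e-06 for Trim30a and -0.00018 for Socs3, values next to 0 by its construction. On the log2(TPM + 1) and then the log2(TPM + 0.1) scale, Irf7 gave -0.048 and -0.044, Ddx58 -0.21 and -0.23, Ifih1 0.026 and 0.039, Ifit2 -0.21 and -0.34, Ifit3 -0.020 and -0.00016, Oas2 0.018 and 0.083, Oasl2 0.12 and 0.20, and Gbp2 -0.11 and -0.17. On the same scales Rsad2 gave 0.00096 and 0.12, Parp9 -0.16 and -0.20, Ifi35 -0.063 and -0.074, Ifi44 -0.21 and -0.43, Rtp4 -0.18 and -0.35, Ifnar2 -0.013 and -0.014, Mavs -0.033 and -0.059, Socs3 -0.016 and -0.016, and Adar -0.22 and -0.26. Without both replicates 2, Ifit2 gave -0.11, Oas1a -0.20, Gbp2 -0.027, Parp14 -0.049, Parp9 -0.033, Ifi35 -0.053 and Rtp4 -0.42. With the covariate, Ifit3 gave -0.0019 and Oas2 0.058.

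Leaving out single libraries turned the sign at least once for 20 genes. Their values ran from -0.085 to 0.22 for Ddx58, -0.0067 to 0.21 for Dtx3l, -0.23 to 0.14 for Gbp2, -0.035 to 0.26 for Ifi35, -0.18 to 0.038 for Ifih1, -0.29 to 0.26 for Ifit2 and -0.80 to 0.63 for Ifit3. They ran from -1.33 to 0.30 for Mx1, -0.16 to 1.12 for Oas1a, -0.53 to 0.58 for Oas2, -0.58 to 0.31 for Oas3, -0.18 to 0.13 for Oasl2, -0.12 to 0.29 for Parp14 and -0.078 to 0.18 for Parp9. For the others the values ran from -0.93 to 0.71 for Rsad2, -0.16 to 0.34 for Rtp4, -0.998 to 0.26 for Trim30a, -0.39 to 0.026 for Xaf1, -0.63 to 0.14 for Zbp1 and -0.26 to 0.0083 for Irf1. Without a turn of sign, the values ran from -1.13 to -0.21 for Cmpk2, 0.31 to 0.95 for Usp18, 0.34 to 0.83 for Bst2, 0.12 to 0.90 for Ifi44 and 0.23 to 0.73 for Irf7. They ran from -0.63 to -0.015 for Gbp3, -0.53 to -0.056 for Herc6, -0.42 to -0.016 for Dhx58, -0.30 to -0.055 for Ifi27, 0.067 to 0.30 for Samd9l, -0.43 to -0.038 for Stat2, -0.19 to -0.073 for Trim25, -0.75 to -0.14 for Ifit1, -0.91 to -0.34 for Mx2 and 0.36 to 2.19 for Isg15, and outside the members from 0.11 to 0.46 for Ifnar2, 0.20 to 0.40 for Mavs, 0.46 to 1.10 for Irgm2 and 0.27 to 0.71 for B2m.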

Other observations

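A second list of 44 interferon-induced genes outside the 36 members had 41 that passed the filter, of which 0 were called by edgeR, 2 had an unadjusted p under 0.05 (beside 5.32% of all genes) and 25 had higher values in Glis2-/- libraries. The median log2 fold change was 0.20, and 6 of the 41 did not overlap between the genotypes, beside 11.7% of all genes, so both shares are near the background. Of these 6, the immunity-related GTPases Irgm1, Irgm2 and Igtp, which act on pathogen vacuoles, lie on chromosome 11 and had values of both signs. Irgm1 had 26.3, 18.4 and 24.9 CPM in Glis2+/+ and 18.1, 12.2 and 15.1 CPM in Glis2-/- libraries, without overlap and with a log2 fold change of -0.62 (SE 0.21, edgeR adjusted p = 0.906). Irgm2 had 4.99, 3.47 and 1.92 against 5.67, 6.28 and 5.56 CPM (0.75, SE 0.37), and Igtp had 4.76, 3.50 and 4.18 against 5.04, 4.87 and 6.81 CPM (0.43, SE 0.29), both higher and without overlap. Irgm2 and Igtp overlap on the same strand, so their reads may have been shared. In TPM, Irgm1 and Irgm2 were also without overlap, and Igtp overlapped. Znfx1, an RNA helicase, had a log2 fold change of 0.29 (SE 0.12, edgeR adjusted p = 0.906), with all mutant libraries higher in CPM and the groups overlapping in TPM. Trim34a (0.58) was higher and Trim5 (-0.47) lower without overlap in CPM, and Trim34a overlapped in TPM.

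The 11 genes of class I antigen presentation all had positive edgeR log2 fold changes, between 0.02 for Tap1 and 0.51 for B2m, with a median of 0.22. The direction was not uniform in TPM. On that scale the mutant mean was below the wild-type mean for Tap1, Erap1, Nlrc5, Tapbp and Psmb10, and above it for the others. None was called by edgeR and 0 had an unadjusted p under 0.05. B2m, the shared light chain, had 80.6, 46.1 and 66.9 CPM in Glis2+/+ and 94.8, 62.6 and 118 CPM in Glis2-/- libraries (0.51, SE 0.26, edgeR adjusted p = 0.917). Psmb9, an immunoproteasome subunit, had 4.34, 4.83 and 3.88 against 5.95, 5.21 and 6.36 CPM without overlap (0.42, SE 0.26), and overlapped in TPM. The leukocyte marker sum was higher in the same mutant libraries, and its part in these values was not tested.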
